A study of Homo sapiens with 24 samples.

Results

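The chaperones of the cytosol and the mitochondria were followed in kidney cancer cells given dasatinib, an inhibitor of the SRC family and ABL kinases. The set was a named list of 43 genes, and 41 of them had a probe set that names a single gene, out of 18132 genes with such a probe set on the array. HSF2 and AHSA1 were not analysed here. For each gene the brightest single-gene probe set was taken, and its deposited signal is on a log2 scale. The list has 6 divisions: the heat shock factors (1 of 2 genes measured), the HSP90 system (9 of 10), the HSP70 system (18 of 18), the small heat shock proteins (3 of 3), the CCT ring (8 of 8) and the mitochondrial chaperonin (2 of 2).

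The samples were 24 PrimeView expression arrays, 3 in each of 8 groups. Caki-1 cells received 1 µM dasatinib for 6, 12 or 24 h or the solvent DMSO, and 769-P cells received the same 4 conditions. Both are established renal cell carcinoma lines, each a single line given a single concentration, and all cells were grown at 37 °C in 5% CO2. The 3 DMSO arrays of a line carry no hour in the labels and stand against all 3 times, and hours under drug and hours in culture cannot be told apart. Replicates are labelled biological, with no word on how the cultures were separated, so the p-values measure the spread between these samples.

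Chaperones hold newly made or stressed proteins in a state from which they can fold. HSP70 takes up short exposed segments and is driven by J-domain partners, which load it, and by nucleotide exchange factors, which empty it. HSP90 receives kinases and steroid receptors from HSP70 through linker co-chaperones, the CCT ring encloses actin and tubulin, and HSPD1 with its lid HSPE1 does the same work for proteins imported into mitochondria. Small heat shock proteins bind unfolded proteins without using ATP. Heat shock factor 1 (HSF1) raises many of these genes together under protein stress by binding repeats of an nGAAn unit in their promoters.

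The median of all probe sets lay between 6.008 and 6.084 on the 24 arrays, and arrays of a group correlated at 0.9929 to 0.9975 over all probe sets. The difference between the 3′ and 5′ control probe sets of GAPDH, a measure of RNA length, was 0.202 to 0.368 on 23 arrays and 0.523 on 769-P 24 h replicate 1. Of 12 cell type markers 11 were measured. The mesenchymal marker VIM read 14.6 to 14.9. Among those of renal carcinoma cells, KRT18 read 11.4 to 12.6, KRT8 8.89 to 10.9, PAX8 9.73 to 10.8 and CA12 7.39 to 11.3. KRT19 read 5.08 to 5.94, near the filter on dim genes. Of the leukocyte and endothelial markers, PTPRC read 3.25 to 3.97, CD3E 5.14 to 5.81 and CDH5 4.78 to 5.41, under or near that filter. CD14 read 3.57 to 6.41 and PECAM1 5.25 to 6.51, and both passed the filter in Caki-1. There CD14 had a mean of 6.19 under DMSO and PECAM1 a mean of 6.35 at 24 h. At 24 h 3 of the 9 markers tested in Caki-1 fell (KRT8 by 1.004, CD14 by 0.98 and KRT18 by 0.82) and 3 rose (CA12 by 2.35, PECAM1 by 0.89 and PAX8 by 0.72). Of all genes tested in Caki-1, 29.9% fell and 32.9% rose. Of the 8 markers tested in 769-P 2 fell (KRT18 by 0.46 and VIM by 0.12) and 3 rose (CA12 by 1.76, PAX8 by 0.50 and KRT8 by 0.29). Of all genes tested in 769-P, 24.6% fell and 31.1% rose, so the marker counts are near the shares of all genes. The part of these marker shifts in the chaperone results was not tested. Fewer cells and less RNA per cell cannot be told apart in such bulk samples.

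Promoter sequences are shown for genes with heat shock units or a shared start region, and a link to the values that follow was not tested. Of the members, 36 had RefSeq promoter entries (52 windows of 250 bases before to 50 after a transcript start, GRCh38.p14). The first 7 sequences below are the 250 bases before a start, and the capitals mark each match to the unit pairs TTCNNGAA or GAANNTTC, which are reverse palindromes and so read alike on both strands. HSP90AA1 and HSP90AB1 encode the inducible and the constitutive cytosolic HSP90, CHORDC1 is an HSP90 partner, HSPD1 is the mitochondrial chaperonin, DNAJB1 is the main J-domain partner of stress-induced HSP70, and HSPB1 and HSPB8 are small heat shock proteins. The windows are chr14:102087045-102087294 on the minus strand for HSP90AA1, chr6:44247693-44247942 on the plus strand for HSP90AB1, chr11:90223050-90223299 on the minus strand for CHORDC1, chr2:197499841-197500090 on the minus strand for HSPD1, chr19:14518398-14518647 on the minus strand for DNAJB1, chr7:76302423-76302672 on the plus strand for HSPB1 and chr12:119178681-119178930 on the plus strand for HSPB8.
HSP90AA1: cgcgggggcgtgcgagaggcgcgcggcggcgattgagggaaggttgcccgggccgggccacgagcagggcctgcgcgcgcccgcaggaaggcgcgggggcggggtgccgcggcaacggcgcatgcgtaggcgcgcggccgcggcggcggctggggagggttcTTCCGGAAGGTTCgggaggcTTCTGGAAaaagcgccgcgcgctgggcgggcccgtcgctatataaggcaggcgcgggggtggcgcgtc
HSP90AB1: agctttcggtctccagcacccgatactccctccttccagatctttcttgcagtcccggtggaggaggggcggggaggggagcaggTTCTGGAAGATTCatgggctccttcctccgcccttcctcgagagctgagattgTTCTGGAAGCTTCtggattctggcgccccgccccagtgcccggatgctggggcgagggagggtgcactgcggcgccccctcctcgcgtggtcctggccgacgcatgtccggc
CHORDC1: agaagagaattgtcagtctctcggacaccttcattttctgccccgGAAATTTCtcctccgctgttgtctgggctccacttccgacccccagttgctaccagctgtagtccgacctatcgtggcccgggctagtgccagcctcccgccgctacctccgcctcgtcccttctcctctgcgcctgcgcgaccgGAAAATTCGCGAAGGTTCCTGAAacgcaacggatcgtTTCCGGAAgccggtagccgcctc
HSPD1: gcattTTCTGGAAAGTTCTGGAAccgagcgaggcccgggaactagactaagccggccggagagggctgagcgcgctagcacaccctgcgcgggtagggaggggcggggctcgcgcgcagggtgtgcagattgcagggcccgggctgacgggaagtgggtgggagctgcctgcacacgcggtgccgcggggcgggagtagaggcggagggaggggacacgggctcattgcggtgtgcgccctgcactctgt
DNAJB1: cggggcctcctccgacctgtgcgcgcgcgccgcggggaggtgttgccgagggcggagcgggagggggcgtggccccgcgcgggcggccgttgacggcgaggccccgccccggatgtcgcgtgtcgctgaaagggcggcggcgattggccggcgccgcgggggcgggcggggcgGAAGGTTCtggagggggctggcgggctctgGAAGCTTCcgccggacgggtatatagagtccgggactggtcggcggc
HSPB1: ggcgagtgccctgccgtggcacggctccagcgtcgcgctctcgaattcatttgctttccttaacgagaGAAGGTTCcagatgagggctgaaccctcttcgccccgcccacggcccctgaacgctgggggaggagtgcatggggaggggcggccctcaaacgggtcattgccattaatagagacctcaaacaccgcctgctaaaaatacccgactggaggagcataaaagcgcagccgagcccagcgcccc
HSPB8: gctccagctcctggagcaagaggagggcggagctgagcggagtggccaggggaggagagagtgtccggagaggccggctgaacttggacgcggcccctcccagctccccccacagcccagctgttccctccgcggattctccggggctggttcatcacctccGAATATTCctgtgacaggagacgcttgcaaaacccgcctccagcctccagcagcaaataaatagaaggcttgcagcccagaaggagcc

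HSPE1 lies head to head with HSPD1 on chromosome 2, and the nearest pair of their starts, 197500379 on the plus strand for HSPE1 and 197500274 on the minus strand for HSPD1, is 105 bases apart. The promoter windows of these starts overlap by 204 bases. The HSPD1 sequence above belongs to another start, 197499840, whose window does not overlap with that of HSPE1. The HSPE1 sequence (chr2:197500129-197500378, plus strand) holds part of the 204 shared bases. Its capitals mark the E-box CACGTG, the letters bound by MYC and related factors.
HSPE1: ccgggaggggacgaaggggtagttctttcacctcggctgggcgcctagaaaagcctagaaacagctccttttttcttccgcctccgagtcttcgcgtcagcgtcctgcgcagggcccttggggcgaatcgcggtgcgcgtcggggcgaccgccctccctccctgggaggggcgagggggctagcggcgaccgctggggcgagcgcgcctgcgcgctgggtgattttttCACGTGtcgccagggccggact

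The longer motif of 3 repeats in a row, in which TTCNNGAA and GAANNTTC overlap at their GAA or at their TTC (each the reverse complement of the other), occurred in the promoter windows of 7 of the 36 members (19.4%), namely CHORDC1, DNAJA1, DNAJB6, HSP90AA1, HSP90AB1, HSPA8 and HSPD1, against 0.608% of the 27305 genes with a promoter entry. The shorter pair TTCNNGAA or GAANNTTC, which every match to the longer motif also contains, occurred in 18 of 36 (50%) against 16.2% of all genes. The E-box occurred in 4 of 36 members (11.1%; HSF2, HSPA9, HSPD1 and HSPE1) against 8.77% of all genes. The E-box marked for HSPE1 lies in the stretch that its window shares with HSPD1, so it counts for both genes. A match describes letters in these windows and not a bound site.

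Most of the chaperone list was lower after dasatinib in both lines, in more of its genes at 12 and 24 h than at 6 h. A gene is called here where limma gave an adjusted p under 0.05 over all genes tested. In Caki-1 cells at 6 h, 13 of the 40 members tested fell and 2 rose, where 14% of all 12420 genes fell and 12.3% rose. At 12 h, 32 fell and 2 rose, where 24.4% of all genes fell and 24.1% rose. At 24 h, 34 fell and 3 rose, where 29.9% of all genes fell and 32.9% rose. The median change of the members was -0.12 at 6 h, -0.49 at 12 h and -0.71 at 24 h, while the median change of all genes was 0.01, 0.04 and 0.08 at those times. HSPB8 stayed under the filter on dim genes in Caki-1 and was not tested there.

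In 769-P cells at 6 h, 20 of the 41 members fell and 2 rose, where 14.5% of all 12350 genes fell and 16.4% rose. At 12 h, 34 fell and 4 rose, where 22.6% of all genes fell and 24.9% rose. At 24 h, 33 fell and 4 rose, where 24.6% of all genes fell and 31.1% rose. The median change of the members was -0.14 at 6 h, -0.47 at 12 h and -0.66 at 24 h, while that of all genes was 0.02, 0.02 and 0.04. The counts at 6 h rested on small changes. In 769-P the number that fell was 13 without DMSO replicate 2 and 12 without 6 h replicate 3, and in Caki-1 it was 8 without 6 h replicate 3. Arrays with the same replicate number deviated together in 769-P at 6 h. With the replicate as a block, HSPA14 passed there with a limma adjusted p of 0.0064 (0.0647 without the block), and HSPB8 passed with 0.0461 (0.361 without it).

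**Figure D1:**
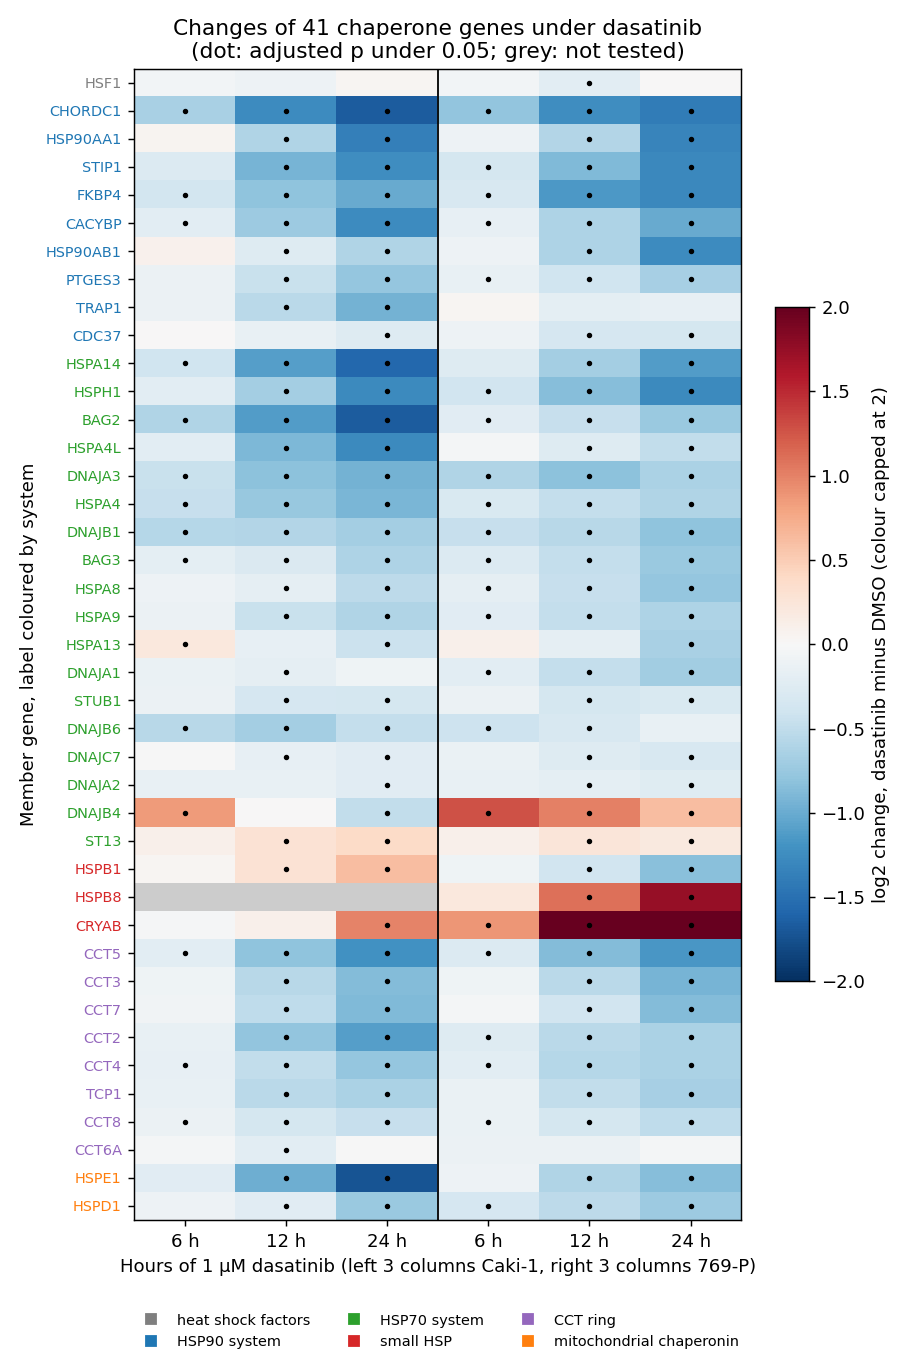
Change in log2 signal from the DMSO mean for each measured chaperone gene (rows, grouped by division) at 6, 12 and 24 h of dasatinib in Caki-1 and 769-P (columns); blue is lower and red higher. The rows turn bluer with time in both lines, CRYAB is the deepest red in 769-P at 3.68, and DNAJB4 is red at 6 h in both.

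The fall also deepened in the comparison of 24 h with 6 h of dasatinib, which uses no DMSO array. In Caki-1, 31 of 40 members were lower at 24 h than at 6 h and 3 were higher, where 25.6% of all genes were lower and 28.1% higher. In 769-P, 31 of 41 were lower and 3 higher, where 18.5% of all genes were lower and 25.8% higher. Between these times the members had a median change of -0.63 in Caki-1, against -0.47 in 769-P. Those higher at 24 h than at 6 h were ST13, HSPB1 and CRYAB in Caki-1, and DNAJB6, HSPB8 and CRYAB in 769-P. Group means stood in the order 6 h over 12 h over 24 h for 32 of 40 members in Caki-1 and 32 of 41 in 769-P. This order was counted for the members alone, so it has no share of all genes to stand against.

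The lines have separate DMSO arrays, so their calls can be set side by side. Of the 40 members tested in both, 31 fell at 24 h in both lines, which is 31 of the 34 that fell in Caki-1 and 31 of the 33 that fell in 769-P. Among the 11908 genes tested in both lines, 19.2% fell in both, 20.0% rose in both and 3.56% moved in opposite directions. CRYAB and ST13 rose in both lines at 24 h, while DNAJB4 and HSPB1 moved in opposite directions. A fall of at least 1 log2 unit at 24 h was reached by 12 members in Caki-1 and 9 in 769-P, where 7.54% and 6.08% of all genes fell that far.

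HSF1 itself gave no called change at 24 h in either line. It read 9.04, 8.84 and 8.89 at 24 h of dasatinib, against 8.97, 8.88 and 8.80 under DMSO in Caki-1. In 769-P it read 8.70, 8.49 and 8.54 at 24 h of dasatinib, against 8.64, 8.49 and 8.57 under DMSO. The arrays of the groups overlapped in both lines, and the changes were 0.04 ± 0.07 in Caki-1 and 0.01 ± 0.08 in 769-P (SE, n = 3 arrays per group). At 12 h in 769-P HSF1 fell, by 0.21 on the log2 scale (limma adjusted p 0.0479), and this call was lost without DMSO replicate 1 (-0.17) or 3 (-0.20) and without 12 h replicate 1 (-0.21), 2 (-0.21) or 3 (-0.20). Of the members with the 3-repeat motif in their promoter window 6 of 7 fell at 24 h in Caki-1, with a median of -0.61, and of those without it 25 of 26 fell, with a median of -0.82. In 769-P 6 of 7 with it fell (median -0.78) and 24 of 27 without it (median -0.64), and no test was made between them.

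**Figure D2:**
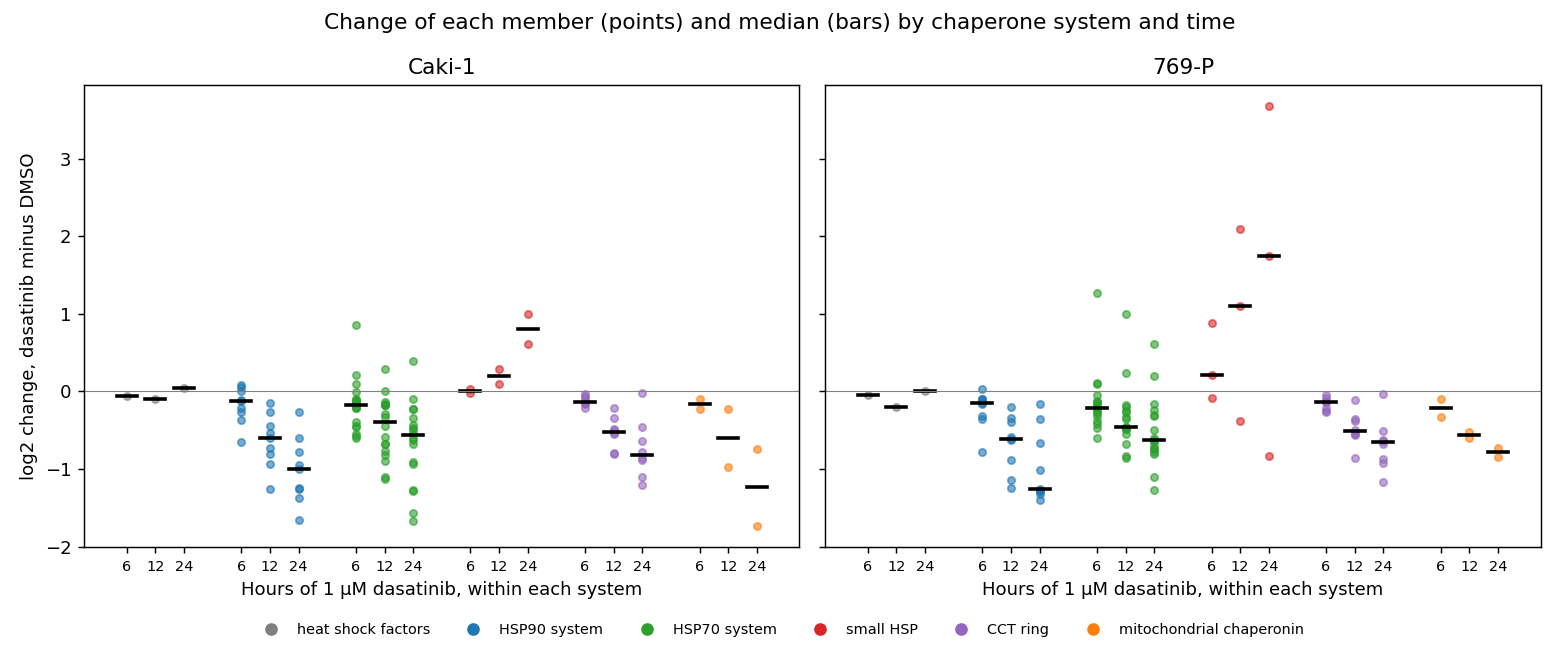
Change in log2 signal from DMSO of every member tested, by division, at 6, 12 and 24 h in Caki-1 and 769-P; points are genes and bars the median of a division. HSP90, HSP70, CCT and mitochondrial chaperonin medians lie below 0 at each time. The small heat shock proteins are split at 24 h in 769-P, with CRYAB at 3.68 and HSPB8 at 1.74 above 0 and HSPB1 at -0.83 below it.

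Nearly all of the HSP90 system fell at the later times. In Caki-1, 3 of its 9 measured members fell at 6 h, 8 at 12 h and all 9 at 24 h, and the 769-P counts were 5, 8 and 8 of 9. Of all genes tested, 14%, 24.4% and 29.9% fell at these times in Caki-1, and 14.5%, 22.6% and 24.6% in 769-P. The median change at 24 h was -1.005 in Caki-1 and -1.25 in 769-P. CHORDC1, whose product binds HSP90 through a CHORD-containing region, has the most heat shock unit pairs of the promoters shown above. A link of these pairs to its change was not tested. CHORDC1 changed most in the system. In Caki-1 it read 9.85, 10.07 and 10.07 under DMSO, 9.66, 9.24 and 9.13 at 6 h, 8.86, 8.74 and 8.63 at 12 h and 8.67, 8.02 and 8.30 at 24 h. The 769-P arrays read 10.43, 10.58 and 10.40 under DMSO, 9.79, 9.71 and 9.57 at 6 h, 9.41, 9.09 and 9.18 at 12 h and 9.31, 9.00 and 8.90 at 24 h. The groups of either line did not overlap between DMSO and any time under dasatinib, and the level stepped down from each time to the next in its mean. The change at 24 h was -1.66 ± 0.15 in Caki-1 (SE; limma adjusted p 1.95e-07) and -1.40 ± 0.11 in 769-P (2.43e-08).

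HSP90AA1, the inducible cytosolic HSP90 itself, followed a later course. The Caki-1 arrays read 13.57, 13.45 and 13.56 under DMSO, 13.71, 13.56 and 13.47 at 6 h, 13.29, 12.83 and 12.66 at 12 h and 12.13, 12.09 and 12.24 at 24 h. Values in 769-P were 12.92, 12.73 and 12.63 under DMSO, 12.60, 12.69 and 12.66 at 6 h, 12.30, 12.14 and 12.06 at 12 h and 11.30, 11.48 and 11.53 at 24 h. The 6 h arrays overlapped with DMSO in both lines, and the 12 h and 24 h arrays lay below every DMSO array. The 24 h change was -1.37 ± 0.12 in Caki-1 (limma adjusted p 7.71e-08) and -1.32 ± 0.08 in 769-P (1.31e-09), a fall to 38.6% and 39.9% of the DMSO level. HSP90AB1, the constitutive HSP90, was picked for its values: it read 12.83, 12.78 and 12.74 at 24 h of dasatinib, against 13.41, 13.35 and 13.40 under DMSO in Caki-1. For 769-P the arrays gave 11.73, 11.70 and 11.61 at 24 h of dasatinib, against 13.04, 12.93 and 12.81 under DMSO. Its arrays did not overlap in either line, and its 24 h change was -0.61 ± 0.06 in Caki-1 and -1.25 ± 0.07 in 769-P, a line difference of 0.65 ± 0.10 (limma adjusted p 1.78e-05).

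The co-chaperones that pass clients between HSP70 and HSP90 fell with them. STIP1, the linker of the 2 machines, read 8.82, 8.51 and 8.65 at 24 h of dasatinib, against 9.92, 9.80 and 10.004 under DMSO in Caki-1. Signals in 769-P were 8.85, 8.40 and 8.50 at 24 h of dasatinib, against 10.16, 9.73 and 9.70 under DMSO. No array overlapped, and the 24 h changes were -1.25 ± 0.11 and -1.28 ± 0.13 in Caki-1 and 769-P. FKBP4, an immunophilin of steroid receptor complexes, read 9.75, 9.57 and 9.59 at 24 h of dasatinib, against 10.76, 10.64 and 10.51 under DMSO in Caki-1. In 769-P it read 9.64, 9.61 and 9.68 at 24 h of dasatinib, against 11.10, 10.91 and 10.77 under DMSO. These too did not overlap, at changes of -1.005 ± 0.10 in Caki-1 and -1.28 ± 0.08 in 769-P. CACYBP, a partner of the ubiquitin ligase SIAH1, changed by -1.25 ± 0.05 in Caki-1 and -1.01 ± 0.05 in 769-P at 24 h. PTGES3, the p23 co-chaperone of late HSP90 complexes, changed by -0.78 and -0.66, and CDC37, which brings kinases to HSP90, by -0.26 and -0.36, the smallest of the called changes in the system in each line. Further probe sets of PTGES3 reached -1.28 in Caki-1 and -1.30 in 769-P.

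TRAP1, the mitochondrial HSP90, set the lines apart and was also picked for its values. Values in Caki-1 were 9.81, 9.77 and 9.75 at 24 h of dasatinib, against 10.61, 10.78 and 10.78 under DMSO. The 769-P arrays read 10.80, 10.84 and 10.70 at 24 h of dasatinib, against 10.96, 10.92 and 10.96 under DMSO. Both lines' arrays were free of overlap, by a wide gap in Caki-1 and a narrow one in 769-P. It fell in Caki-1 by 0.95 ± 0.07 on the log2 scale. In 769-P the change was -0.17 ± 0.09 with a limma adjusted p of 0.15, and the difference between the lines was -0.78 ± 0.12 (adjusted p 2.33e-05).

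**Figure D3:**
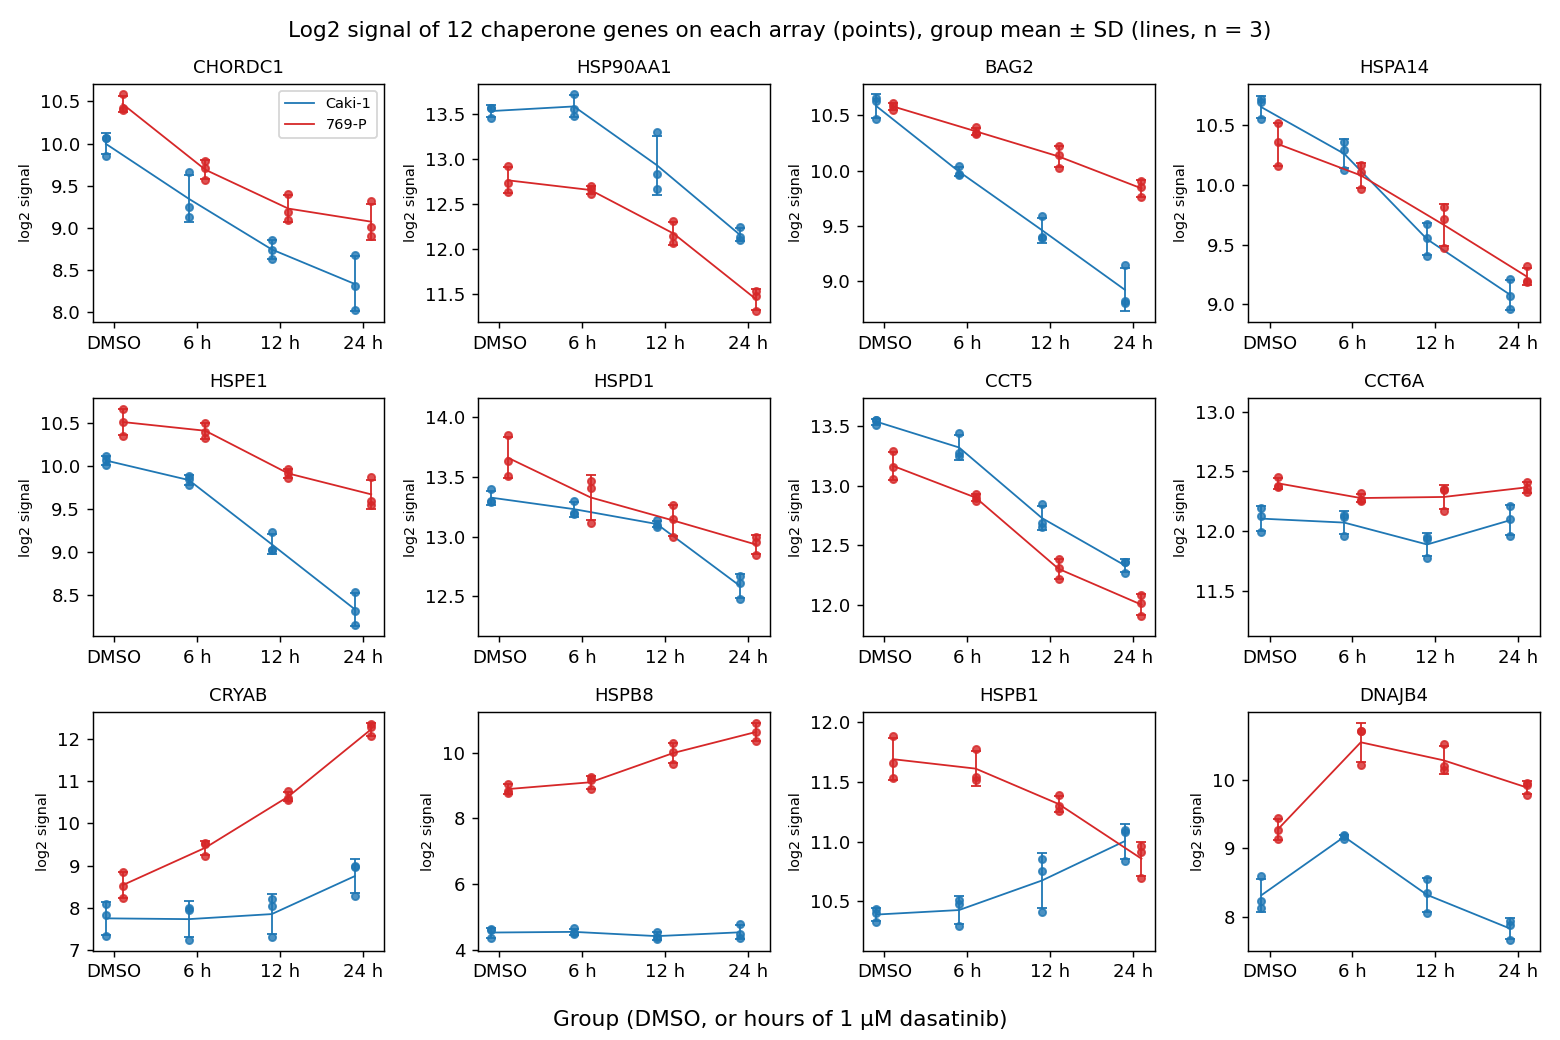
Deposited log2 signal of 12 chaperone genes on each array (points) under DMSO and after 6, 12 and 24 h of dasatinib, with the group mean and SD (lines; n = 3), in Caki-1 (blue) and 769-P (red). CHORDC1, HSP90AA1, BAG2, HSPA14, HSPE1, HSPD1 and CCT5 step down in both lines, CRYAB and HSPB8 climb in 769-P, and HSPB1 runs in opposite directions.

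The HSP70 system held both falling and rising genes. At 24 h, 16 of its 18 members fell and 1 rose in Caki-1, and 15 fell and 2 rose in 769-P, with medians of -0.56 and -0.63. Of all genes at 24 h, 29.9% fell and 32.9% rose in Caki-1, and 24.6% fell and 31.1% rose in 769-P. At 6 h, 7 fell and 2 rose in Caki-1, where 14% of all genes fell and 12.3% rose. The 2 that rose, 11.1% of the system, are near the share of all genes. In 769-P 10 fell and 1 rose at 6 h, where 14.5% of all genes fell and 16.4% rose. BAG2, a nucleotide exchange factor that also holds back the ubiquitin ligase STUB1, fell furthest of these in Caki-1. There it read 10.46, 10.65 and 10.63 under DMSO, 9.96, 10.04 and 9.97 at 6 h, 9.59, 9.39 and 9.40 at 12 h and 9.15, 8.80 and 8.81 at 24 h. Values in 769-P were 10.61, 10.58 and 10.55 under DMSO, 10.39, 10.33 and 10.34 at 6 h, 10.22, 10.02 and 10.14 at 12 h and 9.90, 9.85 and 9.76 at 24 h. The groups did not overlap with DMSO at any time in either line. The 24 h change was -1.66 ± 0.09 in Caki-1 (limma adjusted p 1.32e-09) and -0.74 ± 0.07 in 769-P (1.46e-07), from DMSO levels that differed between the lines by 0.00 ± 0.08. BAG2 lies at chr6:57172326-57189833 (GRCh38.p14).

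HSPA14, an HSP70 that works at the ribosome, was next. In Caki-1 it read 10.55, 10.69 and 10.72 under DMSO, 10.13, 10.36 and 10.30 at 6 h, 9.68, 9.55 and 9.41 at 12 h and 8.96, 9.07 and 9.21 at 24 h. For 769-P the arrays gave 10.52, 10.36 and 10.16 under DMSO, 10.17, 10.11 and 9.97 at 6 h, 9.81, 9.72 and 9.47 at 12 h and 9.32, 9.20 and 9.19 at 24 h. The 12 h and 24 h arrays lay below all DMSO arrays in both lines, and the 6 h arrays overlapped with DMSO in 769-P alone. Its change at 24 h was -1.57 ± 0.09 in Caki-1 and -1.11 ± 0.10 in 769-P. Its other 3 probe sets also read lower, with 24 h changes between -1.62 and -0.94 in Caki-1 and between -1.30 and -0.42 in 769-P, so the size in 769-P depends on the probe set.

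All 3 HSP110 relatives, large HSP70-like proteins that act as exchange factors, fell at 24 h in both lines. HSPH1 read 11.53, 11.30 and 11.39 at 24 h of dasatinib, against 12.79, 12.58 and 12.65 under DMSO in Caki-1. Signals in 769-P were 11.72, 11.50 and 11.68 at 24 h of dasatinib, against 12.95, 12.91 and 12.87 under DMSO. The changes of HSPH1, -1.27 ± 0.10 in Caki-1 and -1.27 ± 0.07 in 769-P, had a line difference of 0.01 ± 0.13 that did not pass (limma adjusted p 0.977). HSPA4L read 7.37, 7.14 and 7.27 at 24 h of dasatinib, against 8.50, 8.54 and 8.57 under DMSO in Caki-1. In 769-P it read 9.12, 9.17 and 9.11 at 24 h of dasatinib, against 9.65, 9.67 and 9.56 under DMSO. Neither line's arrays overlapped, and the fall of HSPA4L was larger in Caki-1, at -1.28 ± 0.13, than in 769-P, at -0.49 ± 0.09 (line difference -0.78 ± 0.16, limma adjusted p 0.000539). HSPA4 changed by -0.91 ± 0.06 in Caki-1 and -0.60 ± 0.09 in 769-P. Other probe sets gave as little as -0.46 for HSPA4 in Caki-1 and as much as -2.17 for HSPH1 in 769-P.

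Of the other HSP70 proteins, HSPA8, the constitutive cytosolic form, changed by -0.53 ± 0.03 in Caki-1 and -0.78 ± 0.06 in 769-P at 24 h. HSPA9, the mitochondrial form, changed by -0.60 ± 0.06 and -0.62 ± 0.06 in the same order of lines. The brightest probe sets gave the smaller falls here: the other 4 of HSPA8 over the filter reached -0.90 in Caki-1 and -1.41 in 769-P, and those of HSPA9 reached -1.11 in 769-P. HSPA13, a microsomal form, rose by 0.21 at 6 h in Caki-1 (limma adjusted p 0.0347) and fell in both lines at 24 h, with changes of -0.44 and -0.64. The 6 h call was lost without any 1 of the 3 Caki-1 6 h arrays (0.22, 0.21 and 0.20) and without DMSO replicate 2 (0.16) or 3 (0.22). Arrays of all 3 genes did not overlap between 24 h and DMSO in either line.

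The J-domain proteins, which hand substrates to HSP70, did not move together. DNAJB1, its main cytosolic partner in stress, was already lower at 6 h, with changes of -0.57 ± 0.08 in Caki-1 and -0.47 ± 0.07 in 769-P. At 24 h it stood at -0.67 and -0.80, and the change between 6 and 24 h did not pass in Caki-1 (-0.10 ± 0.08) but passed in 769-P (-0.34 ± 0.07). DNAJA3, the mitochondrial one, had the same early fall, at -0.45 and -0.60 at 6 h and -0.94 and -0.64 at 24 h. DNAJB6, which holds back the clumping of polyglutamine proteins, was lowest at 12 h in Caki-1 (-0.68) and at 6 h in 769-P (-0.42), and in 769-P its 24 h value of -0.16 ± 0.07 did not pass. Of its 5 probe sets over the filter, the second brightest also fell, while the other 3 gave 0.31, 0.31 and 0.38 at 6 h and 0.36, 0.36 and 0.14 at 12 h in Caki-1, and 0.13, 0.12 and 0.25 at 6 h in 769-P. The direction of DNAJB6 is therefore uncertain here.

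DNAJA1, a type I J-domain partner of HSPA8, had -0.09 ± 0.06 at 24 h in Caki-1, which did not pass, and changed by -0.70 ± 0.06 in 769-P, and the line difference was 0.61 ± 0.08 (limma adjusted p 3.1e-06). Its further probe sets over the filter all fell more than the brightest in Caki-1, by between -0.40 and -0.14 at 24 h. The size of its change in Caki-1 therefore depends on the probe set. DNAJC7, which has binding sites for both HSP70 and HSP90, changed by -0.22 in Caki-1 and -0.31 in 769-P. DNAJA2, a close relative of DNAJA1, was called lower at 24 h in both lines at -0.22 and -0.24, but its next brightest probe set ran the other way, at 0.33 and 0.25. Its Caki-1 call was also lost without DMSO replicate 3 (-0.20) or 24 h replicate 2 (-0.19), so its direction is uncertain here.

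DNAJB4, a close relative of DNAJB1, rose early and was picked for its values. The Caki-1 arrays read 8.59, 8.23 and 8.12 under DMSO, 9.17, 9.13 and 9.19 at 6 h, 8.55, 8.35 and 8.06 at 12 h and 7.88, 7.66 and 7.95 at 24 h. The 769-P arrays read 9.44, 9.26 and 9.13 under DMSO, 10.70, 10.71 and 10.21 at 6 h, 10.51, 10.19 and 10.13 at 12 h and 9.95, 9.92 and 9.78 at 24 h. The 6 h arrays lay above all DMSO arrays in both lines, by 0.85 ± 0.13 in Caki-1 and 1.27 ± 0.13 in 769-P. By 24 h the Caki-1 arrays lay below DMSO, at -0.48 ± 0.13, and the 769-P arrays still above it, at 0.61 ± 0.13. The line difference at 24 h was -1.10 ± 0.20 (limma adjusted p 0.000128), and all 3 probe sets of DNAJB4 had these signs at 24 h, between -0.48 and -0.34 in Caki-1 and between 0.61 and 0.87 in 769-P.

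The remaining regulators of HSP70 split. BAG3, which pairs HSP70 with HSPB8 to send clients to autophagy, changed by -0.62 ± 0.06 in Caki-1 and -0.74 ± 0.08 in 769-P. STUB1, the ubiquitin ligase that tags HSP70 clients, changed by -0.35 and -0.30. ST13, which steadies the substrate-bound state of HSP70, was the member of the HSP70 system that rose at 24 h in both lines, by 0.39 ± 0.06 in Caki-1 and 0.19 ± 0.06 in 769-P. In 769-P the call of ST13 was lost without DMSO replicate 3 (0.14) or 24 h replicate 1 (0.16).

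The small heat shock proteins included the members that rose most. CRYAB, alpha B-crystallin (chr11:111908564-111923740, GRCh38.p14), rose furthest. Values in Caki-1 were 7.33, 7.85 and 8.09 under DMSO, 7.25, 8.01 and 7.96 at 6 h, 7.31, 8.22 and 8.05 at 12 h and 8.30, 8.97 and 9.00 at 24 h. Values in 769-P were 8.25, 8.52 and 8.85 under DMSO, 9.23, 9.50 and 9.54 at 6 h, 10.54, 10.59 and 10.76 at 12 h and 12.05, 12.27 and 12.34 at 24 h. In Caki-1 the 6 h and 12 h arrays overlapped with DMSO, the 24 h arrays lay above it, and the 24 h change was 0.99 ± 0.27 (limma adjusted p 0.00447), a 1.99-fold rise. Replicate 1 was the lowest array of CRYAB in each Caki-1 group. Every 769-P group stood clear of the one before it, and the 24 h change of 3.68 ± 0.13 (limma adjusted p 2.5e-12) is a 12.8-fold rise. The rise was smaller in Caki-1 than in 769-P by 2.69 ± 0.32 log2 units (adjusted p 7.3e-07).

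HSPB8, which works with BAG3, was well above the filter on dim genes in 769-P alone. In Caki-1 it read 4.59, 4.35 and 4.63 under DMSO, 4.50, 4.64 and 4.48 at 6 h, 4.53, 4.31 and 4.39 at 12 h and 4.46, 4.77 and 4.35 at 24 h. For 769-P the arrays gave 9.05, 8.85 and 8.78 under DMSO, 9.25, 9.17 and 8.89 at 6 h, 10.29, 10.03 and 9.66 at 12 h and 10.91, 10.64 and 10.36 at 24 h. The Caki-1 arrays were under the filter on dim genes at each time, and in 769-P the 12 h and 24 h arrays lay above all DMSO arrays. The 24 h change in 769-P was 1.74 ± 0.16 (limma adjusted p 1.08e-07), a 3.35-fold rise. Under DMSO HSPB8 was at least 11.4-fold lower in Caki-1 than in 769-P, taking the filter level of 5.379 as the floor for its Caki-1 mean of 4.52 against 8.89 in 769-P. The next brightest HSPB8 probe set, also under the filter in Caki-1, gave changes of 0.23, 0.60 and 0.62 there at 6, 12 and 24 h. A change in Caki-1 could not be read from such dim signals.

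HSPB1, the widely expressed HSP27, went opposite ways. The Caki-1 arrays read 10.40, 10.44 and 10.33 under DMSO, 10.29, 10.51 and 10.48 at 6 h, 10.41, 10.75 and 10.85 at 12 h and 10.84, 11.08 and 11.09 at 24 h. Signals in 769-P were 11.88, 11.66 and 11.53 under DMSO, 11.78, 11.51 and 11.54 at 6 h, 11.30, 11.39 and 11.26 at 12 h and 10.70, 10.91 and 10.96 at 24 h. At 24 h the Caki-1 arrays lay above DMSO and the 769-P arrays below it, with no overlap in either line. The changes were 0.62 ± 0.10 in Caki-1 (limma adjusted p 0.000102) and -0.83 ± 0.10 in 769-P (1.76e-06), and the difference between the lines was 1.45 ± 0.15 (8.43e-08). HSPB1 started 1.30 log2 units lower in Caki-1 than in 769-P under DMSO, and at 24 h the arrays of the lines overlapped, at 10.84 to 11.09 in Caki-1 and 10.70 to 10.96 in 769-P.

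The CCT ring, built of 8 different subunits, fell at 24 h but for CCT6A. In each line 7 of 8 subunits fell at 24 h, with medians of -0.82 in Caki-1 and -0.65 in 769-P. Of all genes, 29.9% fell at 24 h in Caki-1 and 24.6% in 769-P. At 6 h, 3 of 8 fell in Caki-1 and 4 of 8 in 769-P, all by less than 0.3 log2 units, where 14% and 14.5% of all genes fell. CCT5 (chr5:10249921-10266412, GRCh38.p14) fell most. Values in Caki-1 were 13.55, 13.51 and 13.55 under DMSO, 13.44, 13.27 and 13.25 at 6 h, 12.85, 12.69 and 12.65 at 12 h and 12.36, 12.27 and 12.36 at 24 h. In 769-P it read 13.29, 13.16 and 13.05 under DMSO, 12.87, 12.93 and 12.90 at 6 h, 12.38, 12.31 and 12.22 at 12 h and 12.09, 11.91 and 12.01 at 24 h. No group overlapped with DMSO in either line. The change at 24 h was -1.21 ± 0.06 in Caki-1 and -1.16 ± 0.06 in 769-P. Its 5 probe sets over the filter lay between -1.53 and -0.78 in Caki-1 and between -1.45 and -0.72 in 769-P.

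CCT2 read 11.51, 11.42 and 11.51 at 24 h of dasatinib, against 12.52, 12.58 and 12.64 under DMSO in Caki-1. The 769-P arrays read 11.89, 11.87 and 11.95 at 24 h of dasatinib, against 12.65, 12.52 and 12.43 under DMSO. The fall of CCT2 was larger in Caki-1, at -1.10 ± 0.07 against -0.63 ± 0.06 in 769-P, a line difference of -0.47 (limma adjusted p 0.000193) that the next brightest CCT2 probe set gave as 0.06. CCT3 read 12.16, 12.20 and 12.28 at 24 h of dasatinib, against 13.05, 13.11 and 13.06 under DMSO in Caki-1. Values in 769-P were 11.78, 11.73 and 11.79 at 24 h of dasatinib, against 12.83, 12.67 and 12.59 under DMSO. The changes of CCT3 were -0.86 and -0.93, and neither gene's arrays overlapped between the groups. CCT4, CCT7, CCT8 and TCP1 changed by -0.78, -0.88, -0.46 and -0.64 in Caki-1. In 769-P the same 4 subunits changed by -0.64, -0.87, -0.51 and -0.67.

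CCT6A was the subunit that did not pass at 24 h, and its per-array values were picked for that. In Caki-1 it read 11.96, 12.10 and 12.21 at 24 h of dasatinib, against 11.99, 12.13 and 12.20 under DMSO. For 769-P the arrays gave 12.36, 12.32 and 12.41 at 24 h of dasatinib, against 12.45, 12.37 and 12.37 under DMSO. The groups overlapped in both lines, with changes of -0.01 ± 0.08 in Caki-1 and -0.03 ± 0.06 in 769-P. A further CCT6A probe set names several genes and was not used. Its difference in change from the other subunits was not tested.

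The mitochondrial chaperonin fell in both subunits at 12 and 24 h in each line. Of all genes, 24.4% and 29.9% fell at these times in Caki-1, and 22.6% and 24.6% in 769-P. HSPE1, the lid, read 10.07, 10.11 and 10.01 under DMSO, 9.89, 9.84 and 9.78 at 6 h, 9.23, 9.02 and 9.02 at 12 h and 8.53, 8.15 and 8.31 at 24 h in Caki-1. Signals in 769-P were 10.67, 10.52 and 10.36 under DMSO, 10.51, 10.40 and 10.33 at 6 h, 9.96, 9.92 and 9.86 at 12 h and 9.87, 9.55 and 9.59 at 24 h. The 12 h and 24 h arrays lay below all DMSO arrays in both lines. The 24 h change was -1.73 ± 0.09 in Caki-1 (limma adjusted p 7.54e-10; a 3.33-fold fall) and -0.84 ± 0.09 in 769-P (1.34e-06; a 1.80-fold fall). The line difference was -0.89 ± 0.14 (1.8e-05).

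HSPD1, the barrel, read 13.29, 13.30 and 13.40 under DMSO, 13.30, 13.19 and 13.20 at 6 h, 13.10, 13.14 and 13.08 at 12 h and 12.67, 12.48 and 12.62 at 24 h in Caki-1. In 769-P it read 13.51, 13.63 and 13.85 under DMSO, 13.12, 13.47 and 13.40 at 6 h, 13.26, 13.00 and 13.14 at 12 h and 12.85, 12.96 and 13.00 at 24 h. Its 24 h arrays lay below all DMSO arrays in both lines, and its 12 h arrays did as well. The 24 h changes were -0.74 ± 0.05 in Caki-1 and -0.73 ± 0.10 in 769-P. Its other 4 probe sets over the filter reached -1.19 in Caki-1 and -1.28 in 769-P. Between the lines HSPD1 differed by -0.01 ± 0.12, which did not pass, while the line difference of HSPE1, which starts from the same stretch of chromosome 2, did. HSPE1 had 2 more probe sets and HSPD1 1 more that name several genes and were not used.

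The test of the line difference itself asked which members responded differently in the lines. At 6 h none of 41 members passed, 3 had an unadjusted limma p under 0.05, and 8.09% of all 12862 genes passed. With the replicate as a block CRYAB passed at 6 h, at -0.90 (limma adjusted p 8.68e-06, 0.0964 without the block), and BAG2 at -0.37 (0.0358, 0.0511 without it). Arrays with the same number deviated together at 6 h in 769-P (0.11 to 0.36) but not in every pair of Caki-1 (-0.021 to 0.31). At 12 h, 12 of 41 passed (18.9% of all genes), 8 with a change lower in Caki-1 than in 769-P (10.3% of all genes) and 4 with a change higher in Caki-1 (8.67%). At 24 h, 16 of 41 passed, 12 lower in Caki-1 (22.2% of all genes) and 4 higher (13.8%), and 36% of all genes passed in either direction. The 24 h share among members was near that of all genes. HSPB8 entered these counts through its 769-P level alone. Over the 40 members past the filter in both lines, 11 passed at 12 h and 15 at 24 h, where 18.1% and 35.5% of the 11908 such genes did. Those with a change lower in Caki-1 at 24 h were, besides HSPB8, CRYAB, DNAJB4, BAG2, HSPE1, HSPA4L, TRAP1, CCT2, HSPA14, DNAJB6, HSPA4 and CACYBP, and those higher were HSPB1, HSP90AB1, DNAJA1 and HSPA8. When a gene's probe sets were averaged, HSPA8 turned to -0.08 at 12 h and -0.19 at 24 h, and DNAJB6 to 0.01 at 12 h. That average takes in HSPA8 probe sets under the filter in both lines. Each HSPA8 probe set over the filter fell less in Caki-1 than in 769-P at 24 h. These changes lay between -0.90 and -0.53 in Caki-1 and between -1.41 and -0.78 in 769-P. The 12 h calls of HSPA14 and CCT2 were each lost without Caki-1 DMSO replicate 2 or 3, Caki-1 12 h replicate 2 or 3, 769-P DMSO replicate 2 or 3, or 769-P 12 h replicate 1 or 2, at values between -0.44 and -0.34 for HSPA14 and between -0.25 and -0.20 for CCT2. The 24 h call of HSPA4 was lost without Caki-1 DMSO replicate 2 or 3, Caki-1 24 h replicate 1 or 2, 769-P DMSO replicate 2 or 3, or 769-P 24 h replicate 1 or 2, at values between -0.32 and -0.27. The changes of the 40 members tested in both lines correlated at r = 0.67 at 24 h, where the 11908 genes tested in both had 0.76. Genes of a line share its arrays, so no p is given.

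**Figure D4:**
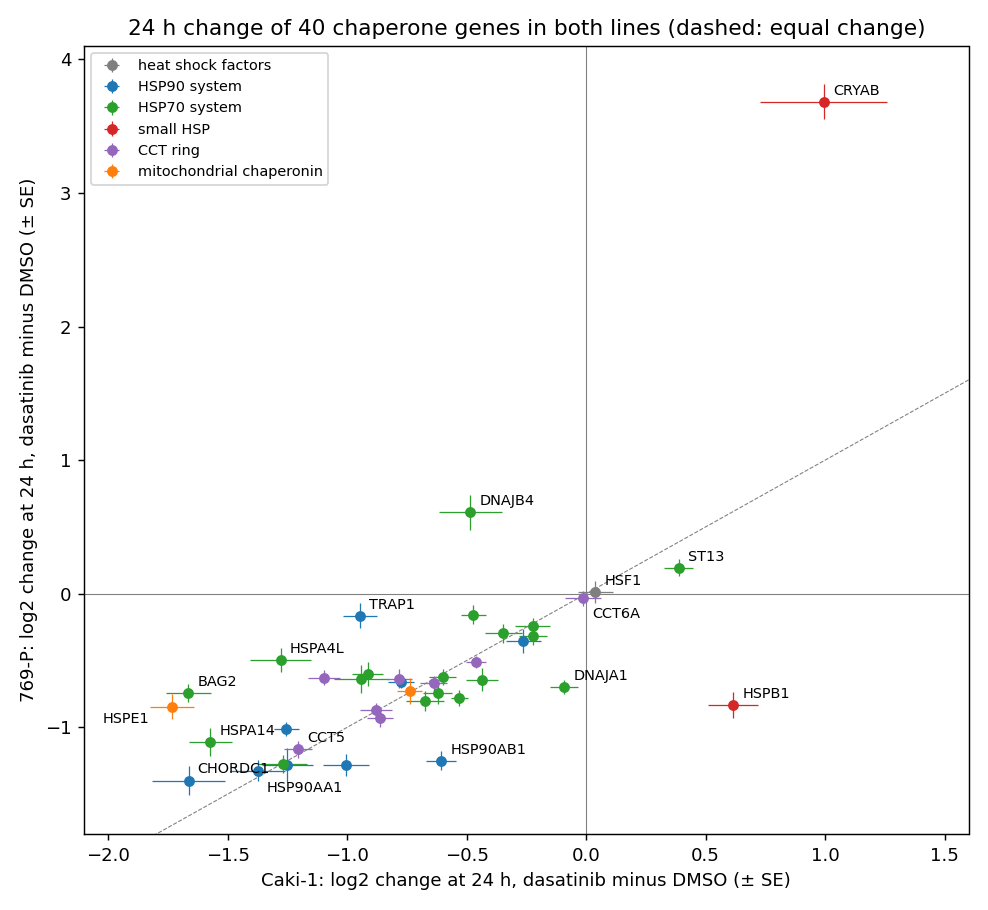
Change in log2 signal at 24 h of dasatinib against DMSO in Caki-1 (x axis) and 769-P (y axis) for the 40 members tested in both lines, with SE bars; the dashed line marks equal change. Most members sit below 0 on both axes, CRYAB lies far above the dashed line at 0.99 in Caki-1 and 3.68 in 769-P, and HSPB1 lies in the quadrant that is higher in Caki-1 and lower in 769-P.

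Before the drug the lines already differed in many chaperones, as they did in genes at large. Under DMSO 16 of 41 members were lower in Caki-1 than in 769-P and 14 higher, where 29.9% of all genes were lower and 28.8% higher. The 16 include HSPB8, which was under the filter on dim genes in Caki-1 and was tested through its 769-P level alone. The shares of all genes likewise take in genes past the filter in 1 line alone. After HSPB8, the members furthest below 769-P in Caki-1 were HSPB1 at -1.30 ± 0.11, HSPA4L at -1.09 ± 0.11 and DNAJB4 at -0.96 ± 0.14. Furthest above were DNAJB6 at 1.69 ± 0.06, HSP90AA1 at 0.77 ± 0.11 and HSPA13 at 0.69 ± 0.08, but the mean of the probe sets of DNAJB6 gave 0.39. Of the small heat shock proteins past the filter in both lines, HSPB1 and CRYAB started lower in Caki-1, and both HSP90 genes of the cytosol started higher.

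Genes around the list were read the same way at 24 h, where 29.9% of all genes fell and 32.9% rose in Caki-1 and 24.6% fell and 31.1% rose in 769-P. Of 13 further HSP90 co-chaperones 11 fell and 1 rose in Caki-1, and 10 fell and 2 rose in 769-P. FKBP5, an immunophilin of steroid receptors, changed by -2.16 in Caki-1 and -1.04 in 769-P, RUVBL1, an ATPase of the R2TP complex, by -1.60 and -1.18, and PPID, a cyclophilin, by -1.38 and -0.73. Of 9 genes of prefoldin and CCT assistants 6 fell and 1 rose in Caki-1, and 4 fell and 1 rose in 769-P. Prefoldin subunits VBP1 (-1.05 in Caki-1, -0.67 in 769-P) and PFDN2 (-1.03 and -1.02) led these. PDCL3, a CCT helper, fell by 0.80 in Caki-1 and had -0.02 in 769-P, which did not pass.

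Of 21 further HSP70 partners 11 fell and 4 rose in Caki-1, and 10 fell and 3 rose in 769-P. DNAJC9, a histone co-chaperone, changed by -1.71 and -1.62, GRPEL1, the exchange factor of mitochondrial HSP70, by -1.18 and -0.89, and BAG1, an exchange factor, by 1.16 and 1.50 in Caki-1 and 769-P. HSPA1B, the stress-inducible HSP70, was looked up after its values were seen, had -0.02 in Caki-1 and -0.19 in 769-P, and did not pass in either. Its near-identical copy HSPA1A may share its signal. Of 8 mitochondrial proteases and unfoldases 4 fell and 2 rose in Caki-1, with CLPB at -1.10, and 2 fell and 2 rose in 769-P, where 25% each way is near the share of all genes. Of the further small heat shock protein and factor genes, 1 of 3 fell and 1 rose in Caki-1 (HSBP1 at -0.66, HSF4 at 0.48), and 1 of 4 rose in 769-P (HSF4 at 0.47).

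Of 16 endoplasmic reticulum chaperones 4 fell and 4 rose in Caki-1, with a median of -0.06, and these shares of 25% are below those of all genes (29.9% and 32.9%). In 769-P 10 of 16 fell and 1 rose with a median of -0.46. HSPA5, the reticulum's HSP70, had -0.06 in Caki-1, which did not pass, and changed by -0.70 in 769-P. DNAJB9, its J-domain partner, rose by 1.41 in Caki-1 and 0.94 in 769-P. SDF2L1 fell by 0.87 in Caki-1 and by 1.18 in 769-P. MANF, a secreted stress protein, had -0.22 in Caki-1, which did not pass, and fell by 0.95 in 769-P.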

How the data were processed

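Gene expression was measured on 24 PrimeView arrays. The deposited values are log2 signals per probe set, and MAS5 is named without a version or settings in the submitters' processing notes. How the authors brought the arrays to a common level is not given in the sources used here. Of 49395 probe sets, 102 controls were left out, 44988 name a single gene, 1832 name several and 2473 none. A gene was read from its brightest single-gene probe set, with symbols updated through Entrez identifiers to RefSeq. Genes under the 40th percentile of a line's mean over its 12 arrays (5.379 in Caki-1, 5.362 in 769-P) were left out. limma 3.58.1 in R 4.3.3 (lmFit, eBayes with trend) was fitted on the 12 arrays of a line for the comparisons with DMSO and of 24 h with 6 h, and on all 24 arrays for line differences, with Benjamini-Hochberg adjustment over all genes tested. Over all genes the SE had a median of 0.100 in Caki-1 and 0.105 in 769-P, a precision limited by the number of arrays. Group means of 3 arrays were compared without a replicate block. Same-numbered arrays deviated together, with every correlation over 0.1, in 769-P at 6 h (0.11 to 0.36), 24 h (0.12 to 0.17) and 24 h with 6 h (0.10 to 0.19), and in no other comparison. Members and lists were chosen with earlier results of these data known. Per-array values were given for the members of largest called 24 h change in each division (up to 4 for HSP90 and HSP70, up to 3 elsewhere), and members said to be picked were chosen after their values were seen. Alternatives were quantile normalization, median centring, no filter or the 60th percentile, the mean or the second brightest of a gene's probe sets, no trend, a replicate block, 1 fit of all 24 arrays and leaving out each array in turn. Promoters were searched with Python 3.11.15 (numpy 2.4.6, pandas 2.3.3, matplotlib 3.10.9) and R tables were read with its package data.table, version 1.17.8. CRYAB, FKBP4, HSF1, HSPA14, CCT6A, ST13 and STUB1 were not used there.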

Additional observations from a re-analysis of the deposited data

Results flagged for a closer look

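The response to dasatinib differed between the lines, by the test of the difference itself (limma, Caki-1 minus 769-P, log2 units), in 11 of the 40 members past the filter on dim genes in both lines at 12 h (18.1% of all such genes) and in 15 at 24 h, a share near that of all such genes (35.5%). At 12 h the change was lower in Caki-1 than in 769-P for CRYAB (-1.99), DNAJB4 (-1.0), BAG2 (-0.67), HSPA4L (-0.63), HSPA14 (-0.43), DNAJB6 (-0.36) and CCT2 (-0.25). It was higher in Caki-1 for HSPB1 (0.66), HSP90AB1 (0.36), DNAJA1 (0.30) and HSPA8 (0.28).

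At 24 h the change was lower in Caki-1 for CRYAB (-2.69), DNAJB4 (-1.10), BAG2 (-0.92), HSPE1 (-0.89), HSPA4L (-0.78), TRAP1 (-0.78), CCT2 (-0.47), HSPA14 (-0.46), DNAJB6 (-0.32), HSPA4 (-0.31) and CACYBP (-0.24). It was higher in Caki-1 for HSPB1 (1.45), HSP90AB1 (0.65), DNAJA1 (0.61) and HSPA8 (0.25). HSPB8 is not given, since it was under that filter in Caki-1. The 12 h calls of HSPA14 and CCT2 and the 24 h call of HSPA4 were each lost when any 1 of 8 arrays was left out, and the direction of DNAJB6 depends on the probe set. So do the 24 h line differences of CCT2 and HSPA4. The next brightest CCT2 probe set gave 0.06. A further HSPA4 probe set fell less in Caki-1 (-0.46) than in 769-P (-0.60), opposite to its call. Both lines share neither arrays nor DMSO groups, and the 12 h and 24 h differences share the DMSO arrays of both.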

How the results depend on the processing

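Over all alternatives, 7434 values of single members kept their side of the threshold, 211 lost a call and 89 gained one. A further 16 changed sign with a call in the main or the alternative fit. Sign changes with no call in either fit are among the 7434, and some came with rescaled arrays. The 16 came from the probe set chosen. DNAJA2 gave 0.23 at 12 h, 0.33 at 24 h and 0.29 for 24 h with 6 h in Caki-1, 0.084, 0.25 and 0.40 in 769-P and -0.26 between the lines under DMSO from the second brightest probe set, and 0.055 and 0.0055 at 24 h in Caki-1 and 769-P from the mean of probe sets. That mean gave HSPA8 line differences of -0.085 at 12 h and -0.19 at 24 h, DNAJB6 0.015 at 12 h and TCP1 -0.15 under DMSO. For HSPA8 the mean takes in dim probe sets that lie under the filter in both lines. The second brightest set gave TCP1 -0.37 under DMSO, CCT2 a 24 h line difference of 0.064 and DNAJA1 -0.18 for 24 h with 6 h in Caki-1.

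The second brightest set covers 28 members in Caki-1 and 29 in 769-P, and gave medians of -0.63 at 12 h and -0.94 at 24 h in Caki-1, -0.83 at 24 h in 769-P and -0.12 under DMSO. With it 1 member was higher at 6 h and 2 at 12 h in 769-P, 1 at 12 h in Caki-1, 2 and 2 had lower and higher 12 h line differences, and 8 were higher in Caki-1 under DMSO. In Caki-1, 1 member was higher at 6 h with median centring, no trend or all 24 arrays, and 1 at 12 h with median centring or no trend. Line differences at 6 h had 1 lower member with quantile normalization, median centring, the 60th percentile filter or the second brightest set, and 2 with the replicate block (CRYAB and BAG2). With the replicate as a block, 18 calls were gained and none lost.

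Leaving out 1 array at a time gave 8 to 16 lower and 1 to 2 higher in Caki-1 at 6 h, 30 to 32 and 1 to 2 at 12 h, and 33 to 35 and 3 at 24 h. In 769-P it gave 12 to 18 lower and 2 higher at 6 h, 32 to 33 and 4 at 12 h, and 33 to 34 and 3 to 4 at 24 h. For 24 h with 6 h it gave 30 to 31 lower in Caki-1 and 28 to 31 in 769-P, with 3 higher in each. Line differences had 0 to 2 lower at 6 h, 6 to 10 lower and 4 to 5 higher at 12 h, and 11 to 13 lower and 4 to 6 higher at 24 h. Small changes at 6 h and genes near the filter on dim genes are the least certain, and 3 arrays per group, 1 concentration and DMSO arrays with no hour limit every comparison.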
